A study of Quercus robur with 165 samples.

Results

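The genes described here were raised in thick roots of pedunculate oak (*Quercus robur*) seedlings in every matched pair of thick and normal roots of Dataset 1. They were chosen by their measured values. For each gene, the group-mean TPM (a transcript level scaled for gene length and library size) of thick roots was divided by that of matched normal roots in 5 pairs, after 0.5 was added to both. The genes were ranked by the smallest of the 5 log2 ratios, and the 100 highest were taken. Of the 35397 genes in the assembly, 19615 had a mean level of at least 2 TPM over the 10 groups of these pairs. The 11 genes of the RT-qPCR list were left out, and 19604 were ranked. The members are therefore 100 of 19604 ranked genes. Their thick to normal ratios in Dataset 1 chose them and are given as a description only.

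Groups are named by the codes of the study. A leading digit gives the harvest of Dataset 1: 1 for plants 7 weeks old and 2 for plants 8 weeks old, both sown in early spring, and 3 for plants 8 weeks old that were sown in early summer. K is the meristematic zone of the taproot, SW its elongation zone and KB a lateral root, and kr, sr and dl are short, medium and long roots. NN is a normal root, NT a dying root, TN a thick root that was still growing and TT a thick and dying root. The code kon stands for containers, rh for rhizotrons (flat boxes with clear walls) and krh for container seedlings transplanted to a rhizotron in the following spring. Dataset 2 was grown in the year after Dataset 1, from stored acorns of one lot for kon and rh, and krh seedlings were 1 year old when transplanted and were harvested 8 weeks later. The 5 pairs were 2K_sr_TN_kon with 2K_sr_NN_kon, 3K_dl_TN_kon with 3K_dl_NN_kon, 3K_dl_TN_rh with 3K_dl_NN_rh, 2KB_sr_TN_kon with 2KB_sr_NN_kon, and 2KB_sr_TN_rh with 2KB_sr_NN_rh. Every group held 3 libraries, in 55 groups and 165 libraries in all. All seedlings were untreated apart from the cultivation, and no genotype was labelled. The sources define thickness for taproots, as thicker than normal and actively growing, and state the classification by length and vitality for taproots too. They do not say whether the length, thickness or vitality class of a lateral root describes that root or its seedling. Lateral roots are called medium, long, thick or dying below by their codes only. Dying taproots were mostly those that had reached the bottom of a container, where air prunes the tip.

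A root grows in length by cell division in the meristematic zone behind its tip and by cell expansion in the elongation zone. In trees, older parts of a root also grow in width by secondary growth, in which the vascular cambium forms xylem and phloem and a cork cambium forms periderm. A tip can also become wider when its cells expand sideways, as in roots that meet a mechanical barrier. The members carry only the identifiers of the assembly (MSTRG numbers), so that none can be assigned here to secondary growth, cell expansion or any other role. In bulk root samples such as these, fewer cells of a type and less RNA per cell cannot be told apart.

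Library depth was 20037169 to 24793325 expected counts in Dataset 1 and 22882800 to 33341476 in Dataset 2. The coefficient of variation left between libraries of a group after counting noise was subtracted was under 0.05 in 78 of 165 library pairs (24 of 75 in Dataset 1 and 54 of 90 in Dataset 2), so that these libraries were near-identical and their p-values may be too small. The tests were therefore repeated with near-identical libraries merged into 1 unit. Within SW_sr_TN_krh, replicate 1 differed from the other libraries by 0.284 and 0.286, whereas these differed from each other by 0.0163. The gene listed as *PIN2* in the RT-qPCR list, in Arabidopsis an auxin efflux carrier of root tips, was used to check the zones. Its group means were 0.0933 to 58.5 TPM in the 13 meristematic zone groups of Dataset 2 (median 32.9) and 0.0167 to 8.93 TPM in the 10 elongation zone groups (median 1.26), so that the ranges overlapped. The low end of the meristematic zone was the thick and dying group K_sr_TT_rh.

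In the pairs of the rule, the median ratio of the members was highest in medium container taproots and, on the TPM scale as deposited, lowest in lateral roots of rhizotrons. The median ratio of the 100 members was 4.005-fold in 2K_sr_TN_kon, 2.17-fold in 3K_dl_TN_kon, 2.25-fold in 3K_dl_TN_rh, 1.68-fold in 2KB_sr_TN_kon and 1.47-fold in 2KB_sr_TN_rh, each against its normal group. The median log2 ratio of all ranked genes in the same order was 0.07, 0.17, −0.12, 0.06 and −0.70. Of the 100 members, 50 had their largest ratio in the pair of 2K_sr_TN_kon, and 70 had their smallest ratio in a lateral root pair, 48 of them in the pair of 2KB_sr_TN_rh. Only 3 of the ranked genes were at least 2-fold higher in all 5 pairs, and only 226 had all 5 ratios above 1. The libraries of the thick group all lay above those of the normal group for 80 members in the pair of 2K_sr_TN_kon (30.4% of ranked genes), 88 in 3K_dl_TN_kon (45%), 83 in 3K_dl_TN_rh (25.9%), 73 in 2KB_sr_TN_kon (31.6%) and 51 in 2KB_sr_TN_rh (3.51%). This held in all 5 pairs for 23 members (0.128% of ranked genes). These counts use the contrast that chose the members, and nothing is read from them.

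**Figure D1:**
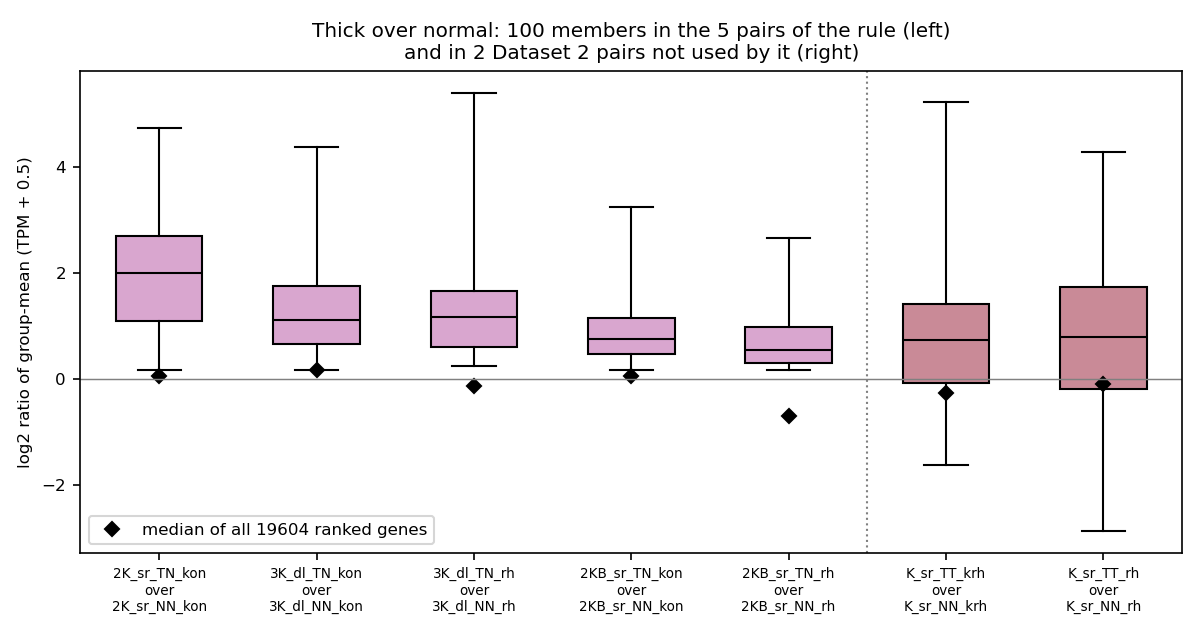
Log2 ratio of thick over normal group-mean TPM (plus 0.5) of the 100 members in each pair, with boxes for the quartiles, a line at the median, whiskers at the lowest and highest value, and a diamond at the median of the 19604 ranked genes. All members lie above 0 in the 5 pairs of the rule, whereas in the Dataset 2 pairs 72 (K_sr_TT_krh) and 67 (K_sr_TT_rh) do.

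The pair of 2KB_sr_TN_rh weighed most on the choice of members. In that group MSTRG.31997, MSTRG.34873 and MSTRG.22495, none of them a member, took 42.7% of all expected counts, against 10.3% in its normal group. TPM shares a fixed total between all genes, and the median log2 ratio over ranked genes in this pair was −0.70. When TPM was rescaled without these 3 genes, a choice made after the data were seen, that median became 0.02. The median log2 ratio of the members in this pair became 1.26, and 86 members did not overlap between the groups (24.8% of ranked genes). Rescaled medians were computed for this pair only and are not ranked against the other pairs. With all pairs ranked by rescaled TPM, 46 of the 100 members were chosen again. Without the pair of 2KB_sr_TN_rh, 11 were chosen again.

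The taproot zone marker moved with the thick groups in taproots. *PIN2* was at 16.3 TPM in 2K_sr_TN_kon against 43.7 TPM in 2K_sr_NN_kon, at 21.4 against 35.3 in 3K_dl_TN_kon and 3K_dl_NN_kon, and at 14.2 against 48.3 in 3K_dl_TN_rh and 3K_dl_NN_rh (means of 3 libraries). It was 7.54 against 7.60 TPM in the container lateral roots and 8.49 against 8.07 TPM in the rhizotron lateral roots. Its part in the ratios of the taproot pairs was not tested.

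The member with the highest score, MSTRG.15310, was a gene of low level whose smallest ratio was 1.12 on the log2 scale. In 3K_dl_TN_rh its libraries were at 10.9, 10.2 and 11.7 TPM, against 0.70, 1.61 and 1.10 TPM in 3K_dl_NN_rh. In lateral roots of containers it was at 4.89, 4.27 and 4.14 TPM when thick and at 0, 1.08 and 1.09 TPM when normal. The groups did not overlap in any of the 5 pairs.

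MSTRG.15472 was highest in lateral roots. It was at 139.9, 133.5 and 141 TPM in 2KB_sr_TN_kon against 11.8, 38.8 and 37.3 TPM in 2KB_sr_NN_kon, and at 131.4, 119.2 and 148.5 TPM in 2KB_sr_TN_rh against 42.2, 65.3 and 85.0 TPM in 2KB_sr_NN_rh. In taproots it was low, at 5.72, 6 and 5.69 TPM in 3K_dl_TN_kon against 0.12, 0.080 and 0.12 TPM in 3K_dl_NN_kon. Thick and normal libraries were separate in each pair, at levels that differed widely between root types.

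MSTRG.22870 reached its highest levels in taproots. It was at 261.3, 261.4 and 262.1 TPM in 3K_dl_TN_kon against 96.8, 85.4 and 93.4 TPM in 3K_dl_NN_kon, and at 194.3, 190.9 and 193.4 TPM in 3K_dl_TN_rh against 105.9, 76.7 and 74.2 TPM in 3K_dl_NN_rh. In 2K_sr_TN_kon its libraries were at 51.2, 50.8 and 178.4 TPM, against 26.5, 1.32 and 1.30 TPM. In lateral roots it reached only 6.75 TPM in the thick and 1.70 TPM in the normal libraries.

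MSTRG.32077 and MSTRG.32078, which have consecutive identifiers, followed one another over the 55 groups (Pearson r = 0.945). MSTRG.32078 was at 10.04, 8.88 and 7.72 TPM in 3K_dl_TN_kon against 1.79, 2.26 and 2.15 TPM in 3K_dl_NN_kon, and at 3.89, 5.16 and 4.97 TPM in 2K_sr_TN_kon against 0.86, 0.32 and 0.41 TPM in 2K_sr_NN_kon. MSTRG.32077 was at 6.56, 3.73 and 5.54 TPM in 3K_dl_TN_kon against 2.17, 1.44 and 1.67 TPM in the normal group. One other pair of consecutive members, MSTRG.10707 and MSTRG.10708, had an r of 0.996. Genes with adjacent identifiers may be neighbours or parts of 1 locus, and reads can be split between near-identical copies, so that these pairs may not be separate observations.

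MSTRG.11730, MSTRG.25735 and MSTRG.30350 were also among the 10 highest scores. MSTRG.11730, also higher in thick taproots than in thick lateral roots, was at 180.3, 185.8 and 208.7 TPM in 3K_dl_TN_rh against 87.0, 86.8 and 84.2 TPM in 3K_dl_NN_rh. MSTRG.25735 was at 6.52, 7.18 and 9.11 TPM in 2KB_sr_TN_rh against 1.89, 3.33 and 3.65 TPM in 2KB_sr_NN_rh, a separation that was also present in the other 4 pairs. MSTRG.30350 was at 10.5, 13.8 and 10.6 TPM in 3K_dl_TN_kon against 2.06, 3.94 and 2.84 TPM in 3K_dl_NN_kon, and overlapped in both lateral root pairs, as in 2KB_sr_TN_rh at 0, 3.34 and 0.46 TPM against 0.67, 0.64 and 0.16 TPM.

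The remaining leading members, MSTRG.19730 and MSTRG.31697, rested on few reads. MSTRG.19730 never exceeded 9 expected counts in a library and was listed at 0 in 76 of 165 libraries. In 2KB_sr_TN_kon MSTRG.19730 was at 15.8, 2.75 and 0 TPM. MSTRG.31697 never exceeded 12.8 expected counts and was listed at 0 in 66 libraries. A thick library of the rule was at 0 TPM in 9 of the 100 members, so that a part of the list is of this kind.

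**Figure D2:**
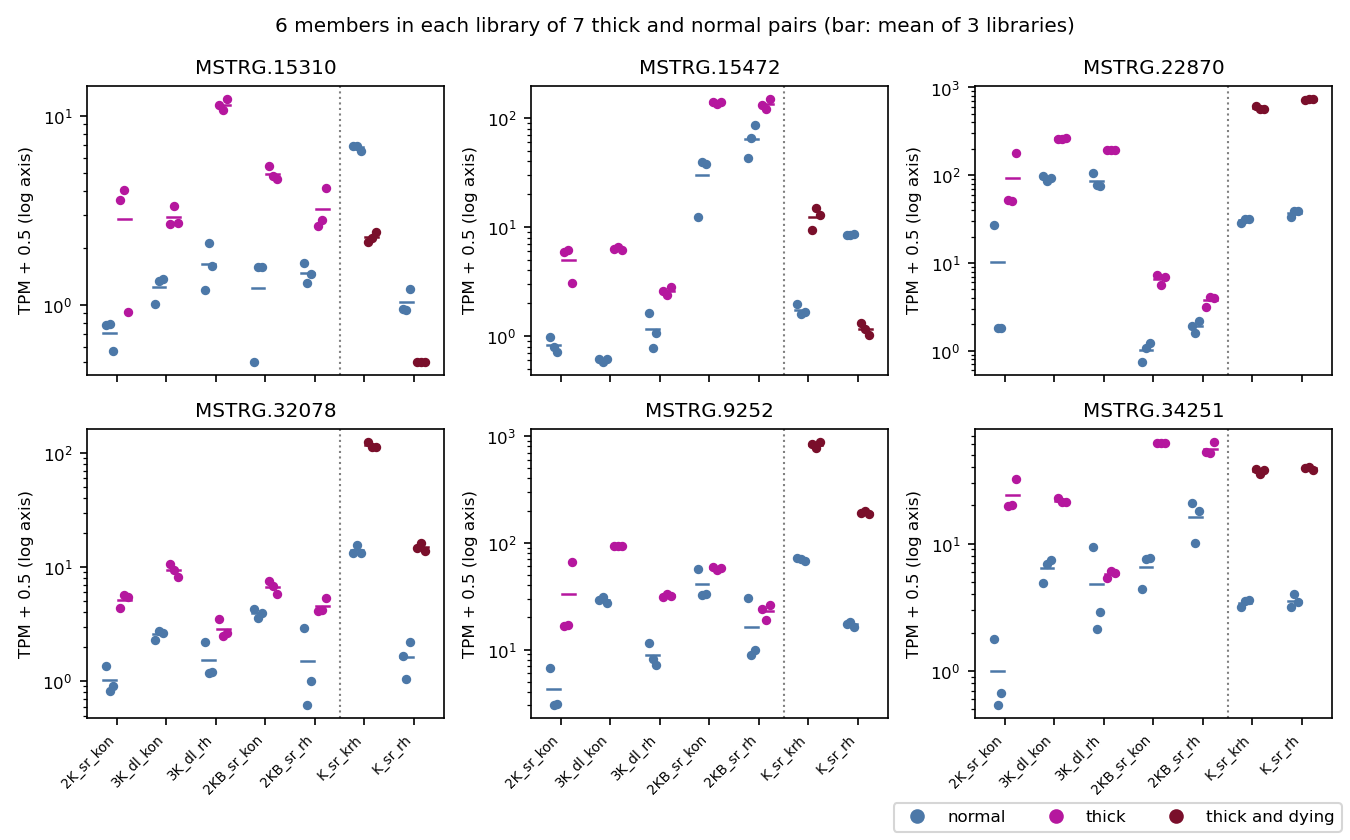
TPM plus 0.5 (log axis) of 6 members in each library of 7 matched pairs of normal (blue), thick (pink) and thick and dying (dark red) roots, with bars at the mean of the 3 libraries; pairs are named by root part, length and cultivation, and those right of the dotted line belong to Dataset 2. MSTRG.22870, MSTRG.32078, MSTRG.9252 and MSTRG.34251 are higher in the thick and dying roots of both Dataset 2 pairs, MSTRG.15310 is lower in both, and MSTRG.15472 is higher in one and lower in the other.

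Most members were expressed at low levels, with a median of 6.55 TPM over the 10 groups (range 2.08 to 409), and 12 reached 50 TPM. The most abundant in thick roots was MSTRG.15431, at 2190, 2055 and 2081 TPM in 2KB_sr_TN_kon against 566, 586 and 522 TPM in 2KB_sr_NN_kon. In 2KB_sr_NN_rh its libraries were at 586, 37.7 and 45.8 TPM and overlapped with 332, 287 and 374 TPM in 2KB_sr_TN_rh. MSTRG.15425 had the same unequal libraries in 2KB_sr_NN_rh (397, 61.7 and 56.2 TPM), against 228, 207 and 300.1 TPM in the thick group. Both genes thus passed the rule there through the group mean and not through separate libraries.

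The other abundant members were separate in taproots. MSTRG.22939 was at 729, 732 and 712 TPM in 3K_dl_TN_kon against 362, 353 and 348 TPM in 3K_dl_NN_kon, and at 1039.8, 1041 and 1029 TPM in 3K_dl_TN_rh against 879.9, 709.9 and 737 TPM in 3K_dl_NN_rh. MSTRG.27249 was at 505, 522 and 481 TPM in 3K_dl_TN_kon against 281, 314 and 325 TPM. MSTRG.34628 was at 128, 132 and 128 TPM against 34.5, 39.2 and 38.4 TPM in the same pair, and its lateral root levels were higher still, at 606, 606 and 608 TPM in 2KB_sr_TN_kon against 528, 430 and 393 TPM. MSTRG.22939 and MSTRG.27249 were thus higher in the thick taproots than in the thick lateral roots, MSTRG.15431 and MSTRG.34628 were the reverse, and MSTRG.15425 was highest in container lateral roots (995 to 1204 TPM in 2KB_sr_TN_kon) but similar in thick taproots (321 to 338 TPM) and thick lateral roots of rhizotrons.

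The ranking had no gap at its limit. The last members were MSTRG.19924, MSTRG.32460 and MSTRG.34514, with smallest ratios of 1.13-fold, 1.13-fold and 1.13-fold (log2 0.181, 0.176 and 0.172). The first genes outside were MSTRG.33173, MSTRG.6670 and MSTRG.27197, with 1.12-fold each (log2 0.167, 0.166 and 0.164). The smallest ratio can hide larger ones, as MSTRG.34514 was raised by 5.40 on the log2 scale in 3K_dl_TN_rh. Length was not a term of the rule, but TPM is scaled for it, so that length and the choice of members may not be independent. Relative to the median ranked gene, the effective length (expected counts per TPM) of 98 members with at least 10 counts had a median of 0.806 (quartiles 0.411 and 1.17, against 0.582 and 1.42 for all ranked genes). The members thus tended to be shorter than the ranked genes, and shorter genes give fewer reads at the same TPM.

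Over the 55 groups the members were lowest, on average, in short and medium normal container taproots of the spring sowing, and the highest averages were those of some elongation zones and of the thick long taproots that the rule had used. As a profile, log2(TPM + 0.5) of each member was taken relative to its own mean over the 55 groups and averaged over the members. It was −2.03 ± 0.12 in 1K_kr_NN_kon, −2.02 ± 0.19 in 1K_sr_NN_kon and −2.01 ± 0.21 in 2K_kr_NN_kon (SD, n = 3), which are short or medium container taproots of the spring sowing outside the rule. The highest values were 1.07 ± 0.057 in SW_sr_TT_krh and 1.05 ± 0.032 in 3K_dl_TN_kon. Dataset 1 and Dataset 2 were grown in different years, so that levels set side by side across them are not matched.

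The profile of the thick groups differed between root parts. In Dataset 1 the thick taproot groups were at 1.05, 0.97 (3K_dl_TN_rh) and 0.30 (2K_sr_TN_kon), and the thick lateral root groups at 0.38 (2KB_sr_TN_kon) and 0.28 (2KB_sr_TN_rh). Groups outside the rule reached similar levels: dying rhizotron taproots (2K_sr_NT_rh) were at 0.79 ± 0.58, with libraries from 0.13 to 1.14, and normal lateral roots of the summer sowing (3KB_dl_NN_kon) were at 0.78 ± 0.043. In Dataset 2 all 10 elongation zone groups lay between 0.59 and 1.07, the thick and dying meristems at 0.86 (K_sr_TT_krh) and 0.39 (K_sr_TT_rh), and the normal meristems between −0.75 and 0.27. High levels of these genes were thus not limited to thick roots.

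**Figure D3:**
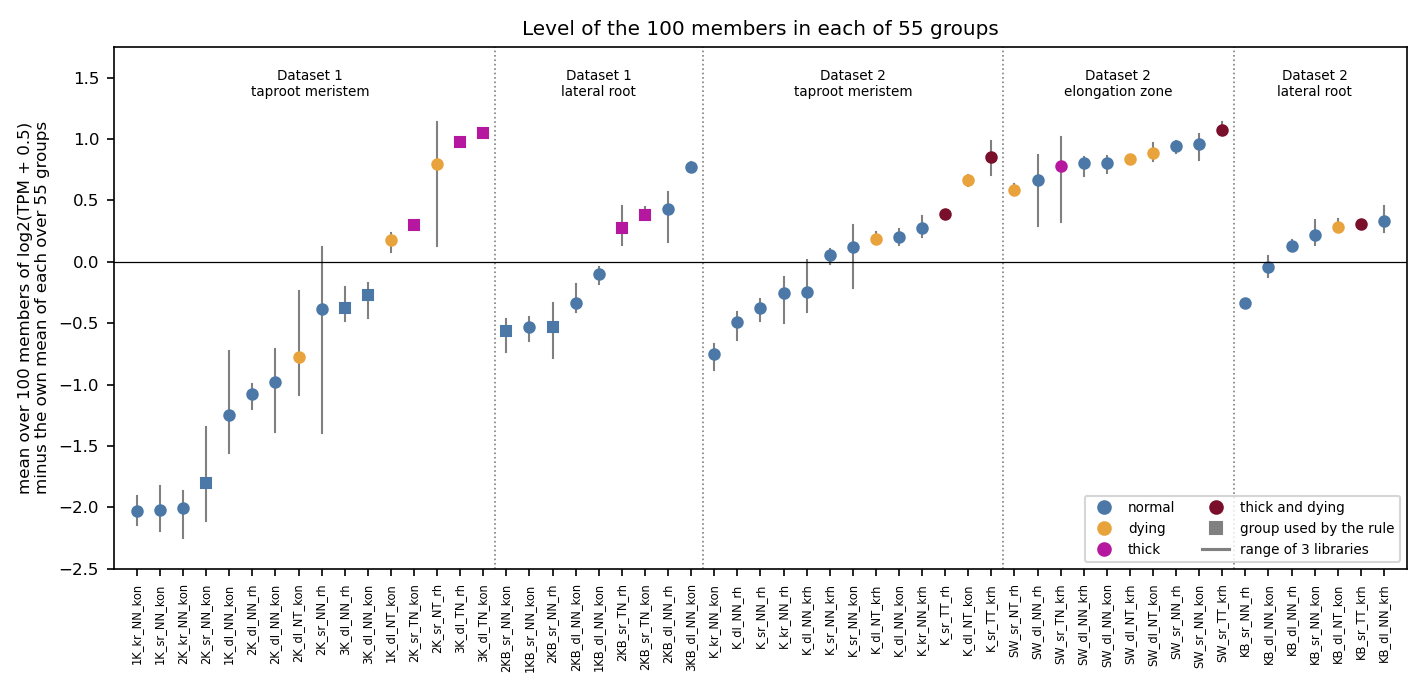
Mean over the 100 members of log2(TPM + 0.5) relative to each member's own mean over 55 groups, by group, with a marker at the mean of the 3 libraries and a grey line over their range; squares are groups used by the rule. The 3K thick taproot meristems lie at the top of Dataset 1 and 2K_sr_TN_kon at 0.30, elongation zones lie between 0.59 and 1.07 whatever their class, and the short and medium normal container taproots of the spring sowing lie lowest, at −2.03 to −1.81.

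Counted by gene, 57 of the 100 members had their highest Dataset 1 group mean in 1 of the 5 thick groups (26.3% of ranked genes), a count that the rule favours. In Dataset 2, which the rule did not use, 53 had it in 1 of the 5 thick groups among 30 (30.2%), most often in KB_sr_TT_krh (20), K_sr_TT_krh (10), K_sr_TT_rh (8), SW_sr_TN_krh (8) and SW_sr_TT_krh (7). A further 21 were highest there in a dying group and 26 in a normal group. Counts for single groups, and for dying or normal groups, are given in this paragraph without the share of ranked genes. Nothing is read from them. By root part, 45 were highest in an elongation zone (21.6% of ranked genes) and 35 in lateral roots (44.3%). The lowest Dataset 2 group was a normal taproot meristem for 47 members (37.8%) and a thick group for 24 (34.8%), 16 of them in KB_sr_TT_krh. The members were not a single block: the median correlation between 2 members over the 55 groups was 0.333 (range −0.740 to 0.996), against 0.107 between ranked genes, with groups that shared datasets and depth. The 55 groups include the 10 groups of the rule, which favours a correlation between members. Nothing is therefore read from the difference of these medians.

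**Figure D4:**
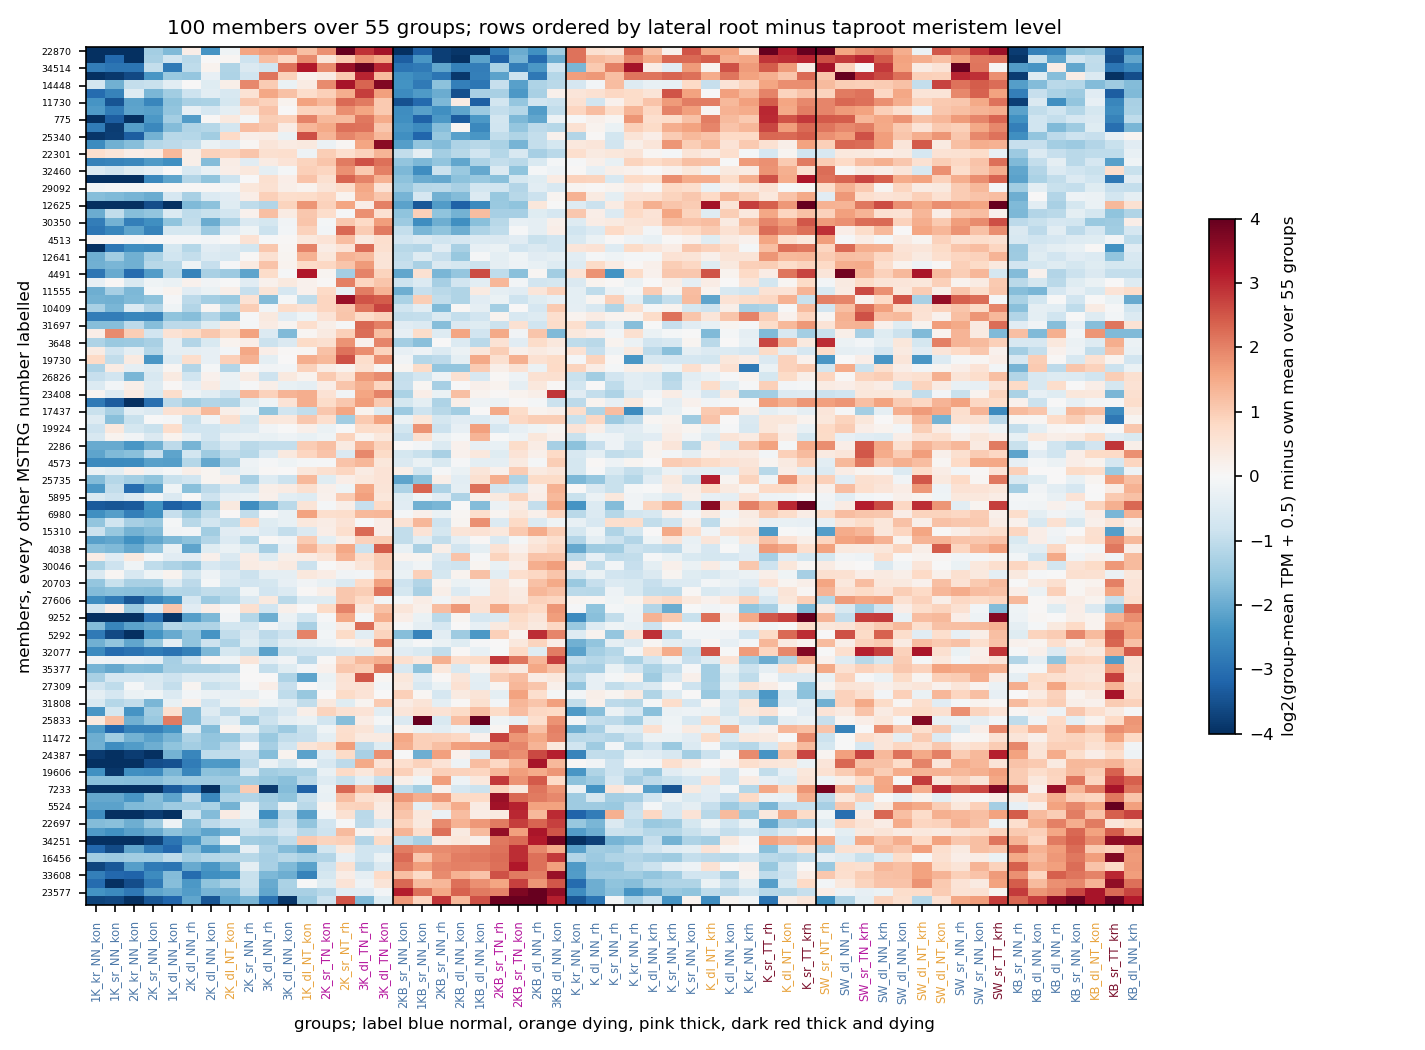
Log2(group-mean TPM + 0.5) of each of the 100 members (rows) relative to its own mean over 55 groups (columns), red above and blue below, with rows ordered from taproot to lateral root genes and columns by dataset, root part and profile. Genes at the top are high in taproots and low in lateral roots, those at the bottom the reverse, and both kinds are low in the short and medium normal container taproots of the spring sowing.

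The check on values that the rule did not use came from Dataset 2, where thick roots were also dying except in SW_sr_TN_krh. Its comparisons were chosen with earlier results of these data known. In taproot meristems, thick and dying medium roots (K_sr_TT_krh and K_sr_TT_rh) were compared with normal roots of the same length and cultivation (K_sr_NN_krh and K_sr_NN_rh), 6 libraries against 6, with edgeR's quasi-likelihood test and adjustment over all genes. Of the 92 members tested, 60 rose (30.3% of all genes tested) and 5 fell (30.6%), and the median was 2.06-fold higher (log2 1.04), against a median of −0.01 for all genes. With near-identical libraries merged, 34 of 96 rose (11.8%) and 1 fell (10.6%). Thickness and dying cannot be told apart in this comparison. *PIN2* fell in it as well, from 51.7, 50.5 and 50.7 TPM to 9.11, 9.82 and 11.4 TPM in transplanted and from 36.9, 34.8 and 34.3 TPM to 0.14, 0.070 and 0.070 TPM in rhizotron roots (log2 −4.12, SE 0.88, edgeR adjusted p = 0.0015), and its part in the rise of the members was not tested. Of the 46 members that the rescaled ranking kept, 42 were tested and 37 rose, and of the 54 others 50 were tested and 23 rose.

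The largest rise was that of MSTRG.22870. It was at 609, 575 and 574 TPM in K_sr_TT_krh against 28.2, 30.9 and 31.0 TPM in K_sr_NN_krh, and at 714, 736 and 734 TPM in K_sr_TT_rh against 32.96, 38.3 and 39.0 TPM in K_sr_NN_rh. The thick libraries lay above all normal libraries in both cultivations (log2 fold change 4.47, SE 0.066, edgeR adjusted p = 1.7e-12).

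MSTRG.34251 and MSTRG.9252 rose by similar factors. MSTRG.34251 was at 37.9, 34.8 and 37.0 TPM in K_sr_TT_krh and 38.5, 39.8 and 37.6 TPM in K_sr_TT_rh, against 2.66 to 3.54 TPM in the 6 normal libraries (log2 3.82, SE 0.078, edgeR adjusted p = 2.6e-11). MSTRG.9252 was at 836, 779 and 873 TPM against 71.3, 69.9 and 67.4 TPM in transplanted roots, and at 190.1, 197 and 186 TPM against 16.9, 17.7 and 15.6 TPM in rhizotron roots (log2 3.73, SE 0.080). Its level differed between the cultivations, but the rise was separate from the normal libraries in both.

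The consecutive pair rose too. MSTRG.32078 was at 123.2, 112.1 and 111.7 TPM in K_sr_TT_krh against 12.8, 15.1 and 12.8 TPM in K_sr_NN_krh, and at 14.2, 15.7 and 13.3 TPM in K_sr_TT_rh against 1.17, 0.55 and 1.69 TPM in K_sr_NN_rh (log2 3.52, SE 0.17, edgeR adjusted p = 9.7e-09). MSTRG.32077 was raised by 2.47 on the log2 scale (SE 0.14), MSTRG.30350 by 1.84 (SE 0.15), MSTRG.11730 by 1.46 (SE 0.29) and MSTRG.25735 by 0.86 (SE 0.11). Of the 5 most abundant members, MSTRG.22939, MSTRG.27249 and MSTRG.15425 rose, by 1.38, 1.40 and 1.13 on the log2 scale. MSTRG.15431 and MSTRG.34628 did not pass the test (log2 0.37, SE 0.43, and log2 0.90, SE 0.46).

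The members that fell were genes of low level. MSTRG.33354 was at 0.51, 0.31 and 0.44 TPM in K_sr_TT_krh and 0.10, 0.090 and 0.070 TPM in K_sr_TT_rh, against 1.66, 1.57, 1.27, 3.16, 2.29 and 2.32 TPM in the normal libraries (log2 −2.97, SE 0.52, edgeR adjusted p = 0.00035). MSTRG.15310, the member with the highest score, fell from 6.44, 6.41 and 6.04 TPM to 1.65, 1.76 and 1.94 TPM in transplanted roots. In rhizotron roots its normal libraries were at 0.45, 0.44 and 0.71 TPM and its thick libraries had no read, at least 14.1-fold lower when 3 counts per library are taken as the floor. MSTRG.31808 was lower as well (log2 −2.13, SE 0.39).

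The effect differed between the 2 cultivations for many members, as it did for many of all genes. The interaction was tested as the difference of the log2 fold changes of the thick and dying class, transplanted minus rhizotron. This difference was called above 0 for 36 of 92 members (30.4% of all genes tested) and below 0 for 31 (26.1%). With near-identical libraries merged, it was called above 0 for 29 of 96 (15.5%) and below 0 for 30 (13.7%). A value above 0 also covers a smaller fall, as for MSTRG.33354 (3.17), which was lower in thick and dying roots of both cultivations. MSTRG.15472 was at 8.88, 14.3 and 12.5 TPM in K_sr_TT_krh against 1.45, 1.08 and 1.15 TPM in K_sr_NN_krh, but at 0.82, 0.66 and 0.53 TPM in K_sr_TT_rh against 7.99, 8.01 and 8.04 TPM in K_sr_NN_rh. The difference of the effects was 7.06 on the log2 scale (SE 0.25, edgeR adjusted p = 3.8e-14), and the average effect did not pass the test (log2 0.13, SE 1.44). Without 1 library of K_sr_NN_krh this average was −0.95 to −0.92. MSTRG.24387 behaved likewise, at 69.6, 61.1 and 57.5 TPM against 5.49, 6.08 and 5.95 TPM in transplanted roots and at 1.36, 1.48 and 1.43 TPM against 3.72, 4.39 and 5.10 TPM in rhizotron roots. MSTRG.14091 showed the reverse, at 4.72, 4.49 and 3.85 TPM against 5.34, 5.68 and 7.07 TPM in transplanted roots and at 5.36, 6.75 and 5.56 TPM against 0.91, 1.18 and 0.89 TPM in rhizotron roots.

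The only thick roots of Dataset 2 that were still growing were the elongation zones of transplanted seedlings, SW_sr_TN_krh. Against long normal elongation zones of the same cultivation (SW_dl_NN_krh), no member of 93 passed edgeR's test, as was the case for all 23264 genes tested (0% called higher and 0% lower). At an unadjusted p under 0.05 there were 14 members and 1452 genes, and DESeq2 called 3 members higher (0.408% of genes). Length differs between these groups, and the median of the members was 0.15 on the log2 scale. Without replicate 1 of SW_sr_TN_krh, the library that stood apart, the count was also 0, with 21 members at an unadjusted p under 0.05.

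Against medium normal elongation zones of containers and rhizotrons (SW_sr_NN_kon and SW_sr_NN_rh), 18 of 95 members rose (8.08% of all genes tested) and 8 fell (6.87%). The cultivation differs in this comparison, and with it the age of the seedlings, since krh seedlings had grown for a year before transplanting. With near-identical libraries merged none passed, with 25 members at an unadjusted p under 0.05, and without replicate 1 of SW_sr_TN_krh 25 of 96 rose (11.8%) and 15 fell (10.5%). MSTRG.32078 rose most, at 11.8, 65.2 and 63.6 TPM against 8.05, 1.86 and 6.23 TPM in SW_sr_NN_kon and 4.03, 3.62 and 2.95 TPM in SW_sr_NN_rh (log2 3.504, SE 0.54, edgeR adjusted p = 0.0058). MSTRG.9252 was at 60.9, 312.7 and 317 TPM against 21.4 to 37.4 TPM in SW_sr_NN_kon and 39.9 to 41.6 TPM in SW_sr_NN_rh (log2 2.83, SE 0.42). Both genes were highest in replicates 2 and 3.

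Among the members that fell in these zones, MSTRG.7233 was at 0.73, 17.3 and 15.9 TPM against 206.3, 209.1 and 50.1 TPM in SW_sr_NN_kon and 130.7, 136.2 and 133 TPM in SW_sr_NN_rh (log2 −3.55, SE 0.87, edgeR adjusted p = 0.031). MSTRG.34514, the last member inside the limit, was at 0.070, 4.82 and 5.13 TPM against 7.48 to 68.2 TPM (log2 −3.24, SE 0.80). The thick libraries lay below all normal ones for both.

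Thick and dying elongation zones (SW_sr_TT_krh) were compared with the thick ones that were still growing. Of 93 members, 3 rose (8.5% of all genes tested) and 13 fell (10.1%). This count rested on replicate 1 of SW_sr_TN_krh: without it 30 rose (27.7% of all genes tested) and 30 fell (29.1%), and without any other single library 1 rose (0.728% to 4.03%). DESeq2 gave 8 higher (13%) and 17 lower (14.8%), limma on log2(TPM + 1) 6 higher (12.8%) and 11 lower (7.98%), and no member rose when near-identical libraries were merged (2 members at an unadjusted p under 0.05). MSTRG.7233 was at 297, 325.8 and 319.9 TPM in the dying zones, against the 0.73 to 17.3 TPM above (log2 4.68, SE 0.93, edgeR adjusted p = 0.024). MSTRG.775 was at 87.9, 84.8 and 86.7 TPM against 39.0, 42.4 and 46.0 TPM (log2 0.95, SE 0.062), and MSTRG.13519 at 11.1, 9.84 and 11.02 TPM against 31.4, 22.9 and 23.3 TPM (log2 −1.36, SE 0.16). *PIN2* was at 8.91, 9.85 and 8.02 TPM in the dying and 0.26, 0.24 and 0.19 TPM in the growing zones.

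In lateral roots the check was divided. Thick and dying lateral roots of transplanted seedlings (KB_sr_TT_krh) had 46 members higher (33.8% of all genes tested) and 30 lower (34.6%) of 91 tested than medium normal lateral roots of containers and rhizotrons. Against long normal lateral roots of transplanted seedlings (KB_dl_NN_krh), 25 were higher (26.7%) and 28 lower (28%) of 88, and the median was −0.13 on the log2 scale. Cultivation and seedling age differ in the first of these comparisons. The class words follow the codes and may describe the seedling or its taproot and not the lateral root. Both comparisons share KB_sr_TT_krh, whose 3 libraries were near-identical. With such libraries merged, the first had 4 higher (1.99%) and 2 lower (1.79%), with 42 members at an unadjusted p under 0.05, and the second had none, with 18. In the second comparison 14, 16 and 15 of 92 members were higher without replicate 1, 2 or 3 of KB_sr_TT_krh (18.5%, 18.5% and 17.5% of all genes tested).

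MSTRG.2286 had the largest rise in both comparisons. It was at 18.9, 15.8 and 18.7 TPM in KB_sr_TT_krh against 1.84, 0.68 and 4.94 TPM in KB_dl_NN_krh and 0 to 1.41 TPM in the 6 medium normal libraries (log2 4.62, SE 0.46, against the latter, edgeR adjusted p = 2.7e-05). MSTRG.33354, which fell in the taproot meristems, was at 27.8, 26.9 and 28.4 TPM against 2.78, 2.72 and 6.74 TPM in the long and 1.88 to 3.42 TPM in the medium normal roots (log2 3.40, SE 0.16, against the latter). MSTRG.5524 was at 37.3, 37.1 and 44.5 TPM against 0.73 to 19.8 TPM in the medium normal roots (log2 3.58, SE 0.59). Against the long normal roots MSTRG.14401 rose from 0.23, 0.13 and 0.49 TPM to 1.84, 2.65 and 1.92 TPM (log2 2.78, SE 0.46). Thick libraries of all 4 genes lay above those of the normal groups given. *PIN2* was lower in these roots too, at 2.35, 3.31 and 3.36 TPM in KB_sr_TT_krh against 8.39, 34.8 and 37.1 TPM in KB_sr_NN_kon and 9.26, 8.62 and 8.53 TPM in KB_sr_NN_rh, and its part in these results was not tested.

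MSTRG.15310 fell most clearly in the same roots. It was at 0, 0 and 0.060 TPM in KB_sr_TT_krh against 2.87, 2.61 and 2.86 TPM in KB_dl_NN_krh and 1.81 to 4.12 TPM in the medium normal roots (log2 −7.21, SE 0.62, and −7.09, SE 0.45, edgeR adjusted p = 0.0003 and 1.6e-06). MSTRG.17375 had at most 1 count in a thick library and was at least 31.4-fold lower than in the medium normal roots, where its libraries ranged from 0.45 to 5.76 TPM. MSTRG.6980 was at 0.97, 0.71 and 0.37 TPM against 11.7, 12.03 and 7.75 TPM in KB_dl_NN_krh (log2 −4.11, SE 0.42). MSTRG.23408 had no read in the thick roots, at least 3.88-fold lower than in the medium normal ones.

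Calls shared between root parts were counted over comparisons with medium normal roots. The comparisons of taproot meristems, of growing elongation zones with medium normal ones and of lateral roots with medium normal ones share no library. Root parts were separated from harvested seedlings, and the sources do not say whether groups of different parts came from the same plants. Calls shared between parts are therefore not read as independent of one another. Of the 89 members tested in all 3, MSTRG.32077, MSTRG.32078, MSTRG.32527, MSTRG.9252, MSTRG.10409, MSTRG.2286 and MSTRG.11472 were higher in each, 7 in all (1.14% of 22507 genes). The arms of the elongation and lateral root comparisons differ in cultivation and seedling age. The elongation comparison had no call with near-identical libraries merged. Against long normal lateral roots of the same cultivation, MSTRG.32527, MSTRG.10409, MSTRG.2286 and MSTRG.11472 were higher as well, MSTRG.32077 was lower (log2 −1.18, SE 0.21, edgeR adjusted p = 0.0041), and MSTRG.32078 (log2 −1.03, SE 0.42) and MSTRG.9252 (log2 −0.66, SE 0.49) did not pass the test. In the elongation zones none of the 7 passed against long normal zones. In meristems and lateral roots together 32 of 89 rose (13.6% of genes), and in meristems and elongation zones 12 of 92 (3.5%).

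Dying roots of normal thickness were compared next, since thick roots of Dataset 2 were mostly dying. In Dataset 1, dying taproot meristems (1K_dl_NT_kon, 2K_dl_NT_kon and 2K_sr_NT_rh) had 31 of 92 members higher than their matched normal groups (5.36% of all genes tested) and 0 lower (4.85%), with a median of 2.18-fold. None of these groups had been used by the rule. The count was 9 of 92 with near-identical libraries merged (1.17%), 0 without 1K_dl_NN_kon and 1K_dl_NT_kon, the first of which is coded long but described as short, and 0 or 1 when all libraries with 1 replicate number were left out; without the conflicting pair, 36 of 91 members had an unadjusted p under 0.05, as did 2951 of 23896 genes. Leaving out single libraries gave 18 to 40, with 18, 20 and 18 without replicate 1, 2 or 3 of 1K_dl_NT_kon and 19 without replicate 1 or 3 of 2K_sr_NT_rh. The shares of all genes in these fits are not given, so that these counts show only the dependence on single libraries. DESeq2 called 45 higher (9.15% of all genes) and 0 lower (8.41%), and 50 members had an unadjusted p under 0.05, as did 6637 of 24907 genes.

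The dying groups of Dataset 1 were themselves uneven. MSTRG.32078 rose most, with 7.07, 7.82 and 6.99 TPM in 1K_dl_NT_kon against 0, 0.10 and 0.10 TPM, and 5.12, 8.10 and 4.38 TPM in 2K_sr_NT_rh against 0.82, 0.42 and 0.18 TPM (log2 3.88, SE 0.90, edgeR adjusted p = 0.017). In 2K_dl_NT_kon it was at 19.7 TPM in replicate 1 and at 0 and 0.10 TPM in the others, against 0.81, 1.5 and 1.86 TPM in the normal group. *PIN2* was at 6.18 TPM in the same replicate 1 and at 70.1 and 72.9 TPM in the other libraries. MSTRG.3549 was the more even one, at 3.14 to 16.7 TPM in the 9 dying libraries against 0 to 3.33 TPM in the 9 normal ones (log2 3.65, SE 0.56). MSTRG.12625 rose by 3.42 (SE 0.86).

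In Dataset 2, dying long taproot meristems (K_dl_NT_kon and K_dl_NT_krh) had 33 of 92 members higher (23.9% of all genes tested) and 9 lower (26%), with a median of 1.30-fold. The description of K_dl_NT_krh leaves out that it was dying, and without that pair 50 of 91 were higher (30.2%) and 18 lower (31.1%). With near-identical libraries merged 1 was higher (0.291%), with 13 at an unadjusted p under 0.05. limma on log2(TPM + 1) gave 39 higher (30.2%) and 2 lower (20.2%). MSTRG.25735 was at 10.01, 9.47 and 9.60 TPM in K_dl_NT_kon against 2.59, 2.56 and 2.81 TPM, and at 25.7, 25.04 and 25.2 TPM in K_dl_NT_krh against 1.15, 1.44 and 2.33 TPM (log2 2.76, SE 0.34, edgeR adjusted p = 4.2e-05). MSTRG.32078 rose by 2.53 (SE 0.25) and MSTRG.4491 by 2.17 (SE 0.12), and both were separate from the normal libraries. *PIN2* was lower here too (log2 −1.86, SE 0.16). Of 90 members tested in both datasets, 14 rose in dying taproots of each (2.56% of 23946 genes), and MSTRG.22870, MSTRG.32078, MSTRG.25735 and MSTRG.9252 were among them.

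The log2 fold change of thick and dying meristems of Dataset 2 was higher than that of dying ones for many members. In the test of the difference between these effects, which share no library, 50 of 94 were higher (22.8% of all genes tested) and 7 lower (24.9%), with a median of 1.56-fold. A higher difference is not always a larger rise. MSTRG.13519, for example, fell in dying roots (log2 −0.73) and was not called in thick and dying ones (log2 −0.10). limma on log2(TPM + 1) gave 34 higher (13.5%) and 12 lower (42.9%), and with near-identical libraries merged 6 were higher (1.49%) and 2 lower (1.94%), with 31 at an unadjusted p under 0.05. MSTRG.34251 rose from 2.66 to 3.54 TPM to the 34.8 to 39.8 TPM above in thick and dying roots, but in dying roots it was at 35.1, 34.6 and 29.8 TPM against 15.5, 16.2 and 17.1 TPM in containers and at 5.06, 4.26 and 4.32 TPM against 9.27, 5.19 and 4.5 TPM in transplanted seedlings (difference 3.63, SE 0.15, edgeR adjusted p = 5.0e-14). MSTRG.22870 was at 220.8, 226.2 and 225 TPM in K_dl_NT_kon against 77.0, 82.5 and 81.6 TPM, a smaller rise than in thick roots (difference 3.65, SE 0.27). Length and cultivation differed between the sets, which were medium krh and rh roots for the thick and dying class and long kon and krh roots for the dying class, and cannot be told apart from the class.

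Along the taproot, the members were higher in the elongation zone than in the meristematic zone. Over 8 matched pairs of groups of Dataset 2 (24 libraries against 24), 63 of 95 were higher (32.5% of all genes tested) and 1 was lower (32.8%), and the median was 1.49-fold. With near-identical libraries merged 55 of 95 were higher (27.4%). MSTRG.7233 was at group means of 63.02 to 314 TPM in the 8 elongation zone groups and 4.18 to 83.1 TPM in the 8 matched meristematic zone groups, higher in 8 of 8 pairs (log2 2.30, SE 0.24, edgeR adjusted p = 5.4e-11). MSTRG.33608 was at 7.78 to 16.4 TPM against 1.27 to 5.99 TPM (log2 2.29, SE 0.16), and MSTRG.16456 at 0.45 to 1.76 TPM against 0 to 0.213 TPM (log2 2.96, SE 0.31). The only member that was lower was MSTRG.22939 (log2 −0.34, SE 0.10), one of the most abundant, which was higher in 3 of 8 pairs and was not called by limma on log2(TPM + 1) or with near-identical libraries merged. *PIN2* was lower in the elongation zone by 4.34 on the log2 scale (SE 0.45).

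Between root types the members split evenly. Over 7 matched pairs (21 libraries against 21), 35 of 96 were higher in lateral roots than in taproot meristems (31.7% of all genes tested) and 37 were lower (35.4%). MSTRG.23577 was at group means of 13.3 to 39.4 TPM in lateral roots and 0.493 to 1.67 TPM in taproot meristems (log2 4.40, SE 0.17, edgeR adjusted p = 1.4e-22). MSTRG.15472 was at 43.5 to 283 TPM against 0.68 to 11.9 TPM (log2 3.66, SE 0.30), and MSTRG.16456 at 2.81 to 17.3 TPM against 0 to 0.213 TPM (log2 5.29, SE 0.28). At the other end, MSTRG.22870 was at 1.39 to 8.80 TPM in lateral roots and 36.7 to 586 TPM in taproot meristems (log2 −4.94, SE 0.30), MSTRG.34514 at 0 to 4.17 TPM against 4.17 to 21.8 TPM (log2 −4.54, SE 0.38), and MSTRG.27249 at 11.1 to 102 TPM against 382 to 1440.2 TPM (log2 −4.22, SE 0.29). The thick to normal ratios of these genes were therefore taken at very different levels in taproots and lateral roots.

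The 9 RT-qPCR genes with known names served as a list of other genes and contain no member. In thick and dying taproot meristems 2 of them rose and 5 fell, where 7456 of all 24583 genes tested rose and 7524 fell. The gene listed as GERL1 rose by 4.88 on the log2 scale (SE 0.49) and that listed as ACO5 fell by 5.202 (SE 0.68, edgeR adjusted p = 3.9e-05). In dying taproots of Dataset 1, 0 of 9 rose and 2 fell (1335 and 1208 of all 24907 genes tested). In those of Dataset 2, 2 rose and 3 fell (5953 and 6466 of all 24908 genes tested).

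**Figure D5:**
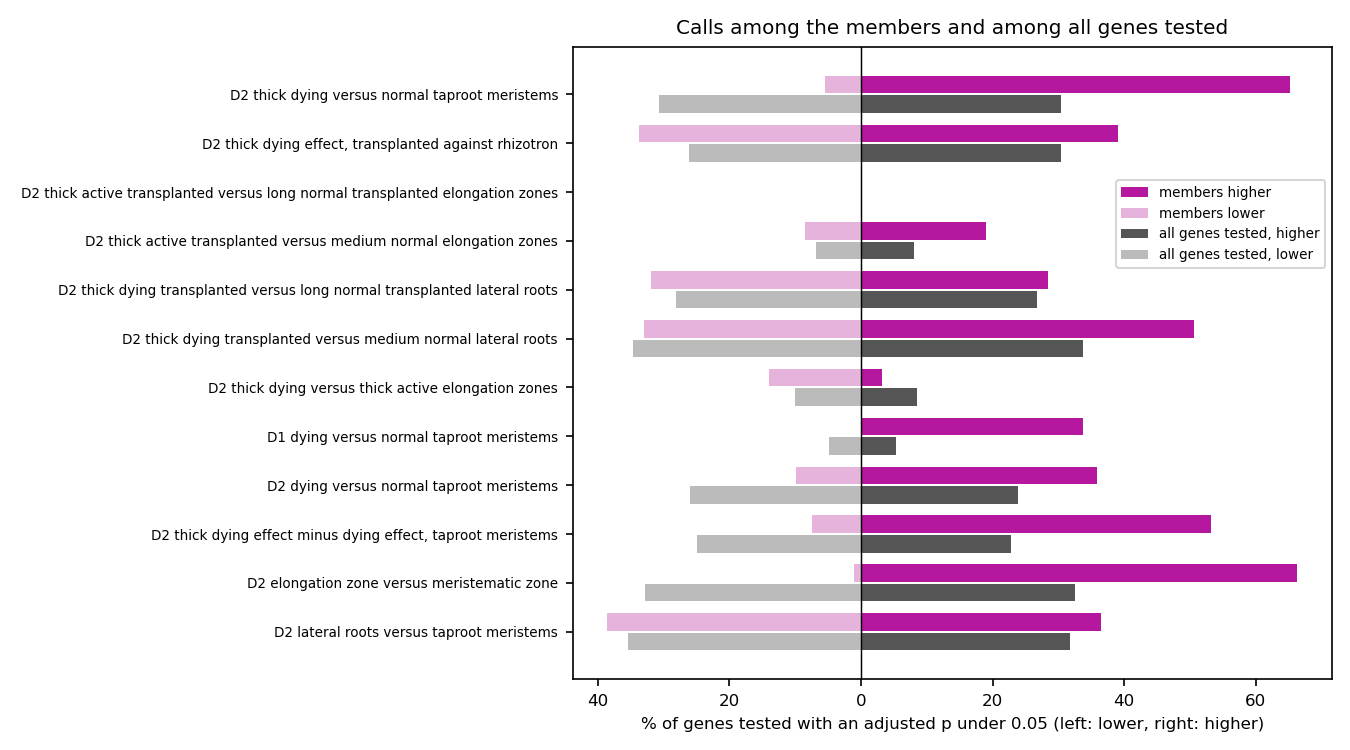
Percent of the genes tested with an adjusted p under 0.05 in 12 comparisons, for the members (pink) and all genes tested (grey), with genes that were higher to the right of 0 and lower to the left. The members exceed all genes on the higher side, for example, in thick and dying taproot meristems (60 of 92), in dying taproots of Dataset 1 (31 of 92) and in the elongation zone (63 of 95). Their shares are close to those of all genes in thick and dying transplanted lateral roots against long normal transplanted ones (25 higher and 28 lower of 88).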

How the data were processed

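Root RNA was sequenced by the authors from poly(A) libraries with strand information. They trimmed the reads, removed ribosomal RNA with Bowtie 2, mapped with STAR to the *Q. robur* genome (Qrob_PM1N), merged transcripts with StringTie and estimated levels with RSEM, with strandedness observed. The deposited expected counts per gene were estimated by the authors with RSEM and are not normalized. The deposited TPM values, also from RSEM, were scaled by the authors for length and library size. Reads shared by similar genes are divided by RSEM, which makes such genes uncertain.

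The members, pairs and comparisons were chosen with earlier results of these data known. Expected counts were rounded and tested with edgeR 4.0.16 in R 4.3.3 (filterByExpr with a minimum count of 10, TMM factors, quasi-likelihood test, Benjamini-Hochberg adjustment over all genes, threshold 0.05), with the matched pair as covariate and no block for replicate number. Replicates are named biological by the study. SE, which is approximate, was obtained from the fold change and its F statistic. Folds against libraries with at most 3 counts are lower bounds, computed from depth-scaled counts against 3 counts per library. Results were recomputed with limma 3.58.1 on log2(TPM + 1), with DESeq2 1.42.0, with other scalings and filters, with a replicate block, with merged near-identical libraries (coefficient of variation under 0.05 beyond counting noise over 5147 genes with a mean of 1000 to 10000 counts), and with libraries omitted. Counts of members given without a figure for all genes are not read as a difference from all genes. Figures were drawn with matplotlib 3.10.9.

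The genes named are the 10 highest scores, the 5 highest levels in thick groups, up to 3 members that rose and 3 that fell most per comparison, the 3 on each side of the limit, and the 9 RT-qPCR genes. MSTRG.10707, MSTRG.10708, the 3 abundant genes and the members higher in all root parts were named after their values were seen. Same-numbered libraries of matched groups were not paired: the correlation of their deviations from the group means ranged from −0.350 to 0.566 in 69 library pairs, with 8 above 0.1. Gene names, positions and sequences of the members were not used here.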

Additional observations from a re-analysis of the deposited data

Results flagged for a closer look

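The effect of the thick and dying class differed between transplanted and rhizotron taproot meristems in a test of the interaction with edgeR. The difference of the log2 fold changes, transplanted minus rhizotron, was above 0 for 36 of 92 members (30.4% of all genes tested). It was below 0 for 31 (26.1%). The largest positive differences on the log2 scale were those of MSTRG.15472 (7.06), MSTRG.15310 (6.73) and MSTRG.24387 (5.25), and the largest negative ones those of MSTRG.14091 (−2.80), MSTRG.3411 (−2.72) and MSTRG.27309 (−2.68). MSTRG.15310 was lower in thick and dying roots of both cultivations, so that its positive value stands for a smaller fall in transplanted roots. This value depends on thick rhizotron libraries without a read, and limma on log2(TPM + 1) gave −0.78. MSTRG.3411 was at 1.08 TPM in K_sr_TT_krh against 3.71 TPM in K_sr_NN_krh and at 4.11 TPM in K_sr_TT_rh against 1.84 TPM in K_sr_NN_rh. MSTRG.27309 was at 1.81 against 6.60 TPM and at 8.06 against 3.06 TPM in the same groups.

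The effects of thick and dying and of dying taproot meristems in Dataset 2 differed for 50 of 94 members in the direction of thick roots (22.8% of all genes tested) and for 7 in the other (24.9%), by the test of the difference. With near-identical libraries merged these counts were 6 (1.49%) and 2 (1.94%). The largest differences on the log2 scale were those of MSTRG.5292 (4.01), MSTRG.22870 (3.65) and MSTRG.34251 (3.63), and on the other side those of MSTRG.15310 (−4.40), MSTRG.33354 (−3.003) and MSTRG.31808 (−2.68). MSTRG.5292 was uneven in the normal group K_dl_NN_krh, where its libraries were at 38.7, 6.56 and 142.2 TPM.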

How the results depend on the processing

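Counts below are of members called higher, and shares of all genes are given with the comparisons above where stated. These shares moved with the setting too, so that a changed count is not read as particular to the members. With near-identical libraries merged the count was 34 in thick and dying taproot meristems, 4 (medium normal) and 0 (long normal) in lateral roots, 0 in growing thick elongation zones against medium normal ones, 0 between thick elongation zones, 9 in dying taproots of Dataset 1 and 1 in Dataset 2, and 6 for the difference of the effects. DESeq2 gave 3 in thick elongation zones against long normal ones and 8 between thick elongation zones, where limma gave 6. Without the pair with conflicting labels the count was 0 in Dataset 1 and 50 in Dataset 2. Leaving out replicates gave 14 to 35 in lateral roots against long normal ones, 1 to 30 between thick elongation zones and 0 to 40 in dying taproots of Dataset 1. The block for replicate number, whose numbers do not pair the libraries, gave 0 in place of 3 between thick elongation zones and 53 in place of 60 in thick and dying meristems, and in the other comparisons stayed within 1.5 times.

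Of the 100 members, 58 were kept with a mean of at least 5 TPM, 39 with TMM-scaled CPM, 46 with TPM rescaled without 3 genes, 62 to 75 without a replicate number, 53, 55 and 11 without the pair of 3K_dl_TN_rh, 2KB_sr_TN_kon or 2KB_sr_TN_rh, and 31 by the mean of the 5 ratios. The median of all genes, −0.03 to 0.05 on the log2 scale with TMM, ranged from −0.22 to 0.18 with limma on TPM and from −0.18 to 0.12 without TMM. Among 1223 values of named genes, 1093 kept direction and call, 123 lost the call, 1 gained it and 6 reversed. These 6 are MSTRG.15472 in thick and dying meristems, at −0.92, −0.95 and −0.95 without a replicate of K_sr_NN_krh and −0.10 and −0.05 without replicate 2 or 3 of K_sr_TT_krh (and up to 1.19 without replicate 3 of K_sr_TT_rh), and MSTRG.15310 in the interaction, at −0.78 with limma. The cause of these changes was not tested.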
